A study of Homo sapiens with 12 samples.

Results

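The genes described here are 10 genes of epithelial cytokine and chemokine signalling. They are the ligands IL1A, IL1B, IL6, IL24, CXCL8, CXCL1, CXCL2 and CCL20, the decoy receptor IL13RA2 and the receptor antagonist IL1RN. They were chosen by name, with earlier results of these data known, from among 19775 genes on the array. Counts of these genes beside shares of all genes are therefore descriptive. A probe set was used when a member was its only gene symbol, which gave 19 probe sets, and the probe set with the highest mean over all 12 arrays stood for its gene. Of the 10 genes, 9 reached log2 6 in at least 4 arrays and were tested. IL1RN did not.

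The cells were MCF10A, a line generally described as non-tumorigenic mammary epithelium, although its labelled origin is breast cancer. They were either WT or silenced for the translation initiation factor eIF4G1 by a doxycycline-inducible short hairpin RNA (4GKD, called knockdown here). Each genotype was mock-treated or irradiated with 10 Gy from a linear accelerator, and RNA was taken from light polysomes (LMW), heavy polysomes (HMW) and whole-cell RNA (Total). This gave 4 conditions in 3 preparations, with 1 array for each of the 12 combinations and no replicate within a condition. HMW pools held messages with 4 or more ribosomes. The sources used here do not give the time after irradiation, nor say if doxycycline or a control hairpin was used in WT cells. The p-values below therefore measure the spread between these arrays only, which may be technical, and not the spread between separate cultures. For the tests of knockdown and 10 Gy, that spread is how far the knockdown difference varied between mock and 10 Gy cells. It cannot be told apart from a response to 10 Gy that differs between genotypes.

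Epithelial cells release these proteins as signals to immune and neighbouring cells. IL-1 alpha and IL-1 beta act through the IL-1 receptor, and the receptor antagonist blocks it. IL-1 signalling activates the transcription factor NF-kappaB, which is known to induce IL6 and the chemokines, and many of their messages are short-lived because AU-rich elements recruit decay factors. eIF4G1 is the scaffold that joins the cap-binding protein to the helicase and the small ribosomal subunit during translation initiation.

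EIF4G1 itself was lower in the knockdown in 6 of 6 matched comparisons, with 6.36% to 26.8% of the WT intensity left. Of 8 basal epithelial markers on the array, 7 were at log2 6 or more in all 12 arrays. Of 8 immune markers, 7 were below log2 6 in all 12 arrays, the exception being CD14, and all 5 endothelial markers were below it throughout. Of 7 fibroblast markers, 4 were below it throughout, and of 7 luminal markers 3 were. The polysome arrays of WT cells stood apart. WT mock and WT 10 Gy cells differed by at least 2-fold at 2041 of 10157 tested genes in LMW and at 1830 in HMW, but at 9 in Total, whereas the corresponding counts in the knockdown were 135, 86 and 98. In HMW the WT mock array correlated with the knockdown arrays at 0.854 and 0.880, and the WT 10 Gy array at 0.932 and 0.945. In LMW neither WT array was closer, with 0.862 and 0.896 for WT mock and 0.861 and 0.888 for WT 10 Gy. For the members called in a knockdown comparison on polysomes, the 10 Gy pair, which does not use the WT mock arrays, is given as well.

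The 4 chemokine promoters are shown because these genes moved together between heavy and light polysomes. The sequences are the 120 bases before the RefSeq start (GRCh38.p14), written 5′ to 3′ along the gene. Capitals mark GGAATTTCC, a form of the NF-kappaB site, and TATAAA, the TATA box.
CXCL8, chr4:73740449-73740568, plus strand: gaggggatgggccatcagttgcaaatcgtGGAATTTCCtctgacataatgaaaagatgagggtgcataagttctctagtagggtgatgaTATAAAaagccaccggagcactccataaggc
CXCL1, chr4:73869273-73869392, plus strand: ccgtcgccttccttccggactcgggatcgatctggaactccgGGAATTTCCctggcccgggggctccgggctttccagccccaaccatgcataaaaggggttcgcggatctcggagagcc
CXCL2, chr4:74099196-74099315, minus strand: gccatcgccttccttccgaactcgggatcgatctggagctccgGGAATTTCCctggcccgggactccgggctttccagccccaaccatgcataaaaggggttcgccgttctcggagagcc
CCL20, chr2:227813722-227813841, plus strand: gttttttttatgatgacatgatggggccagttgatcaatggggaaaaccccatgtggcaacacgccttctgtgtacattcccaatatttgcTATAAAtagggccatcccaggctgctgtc

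CXCL1 and CXCL2, which encode closely related proteins, shared a run of 42 identical bases in these windows, and CXCL8 shared at most 9 with either. Both strands of 300-base windows (250 bases before the start and 50 after) were searched, and 9 of the 10 genes had a window, with 12 windows in all. A gene was counted when any of its windows matched, whereas the shares are of single windows, so the counts are favoured against them. GGAATTTCC was found in 3 of the 9 genes (CXCL1, CXCL2 and CXCL8), against 0.461% of 35116 windows. That form was chosen after the sequences had been seen. A looser NF-kappaB pattern (GGG, any 5 bases, then CC) was found in 6 of the 9 genes (CCL20, CXCL1, CXCL2, CXCL8, IL1RN and IL6), against 58.7% of all windows, and in CXCL1 and CXCL2 it overlapped GGAATTTCC. The AP-1 site TGACTCA was found in 3 genes (CXCL8, IL1A and IL1RN), against 4.95% of windows, and TATAAA in 4 (CCL20, CXCL8, IL1A and IL1RN), against 11.5%. In IL1A the TATAAA match lay at position -239, far from the start. A match describes the letters only and shows no binding.

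**Figure D1:**
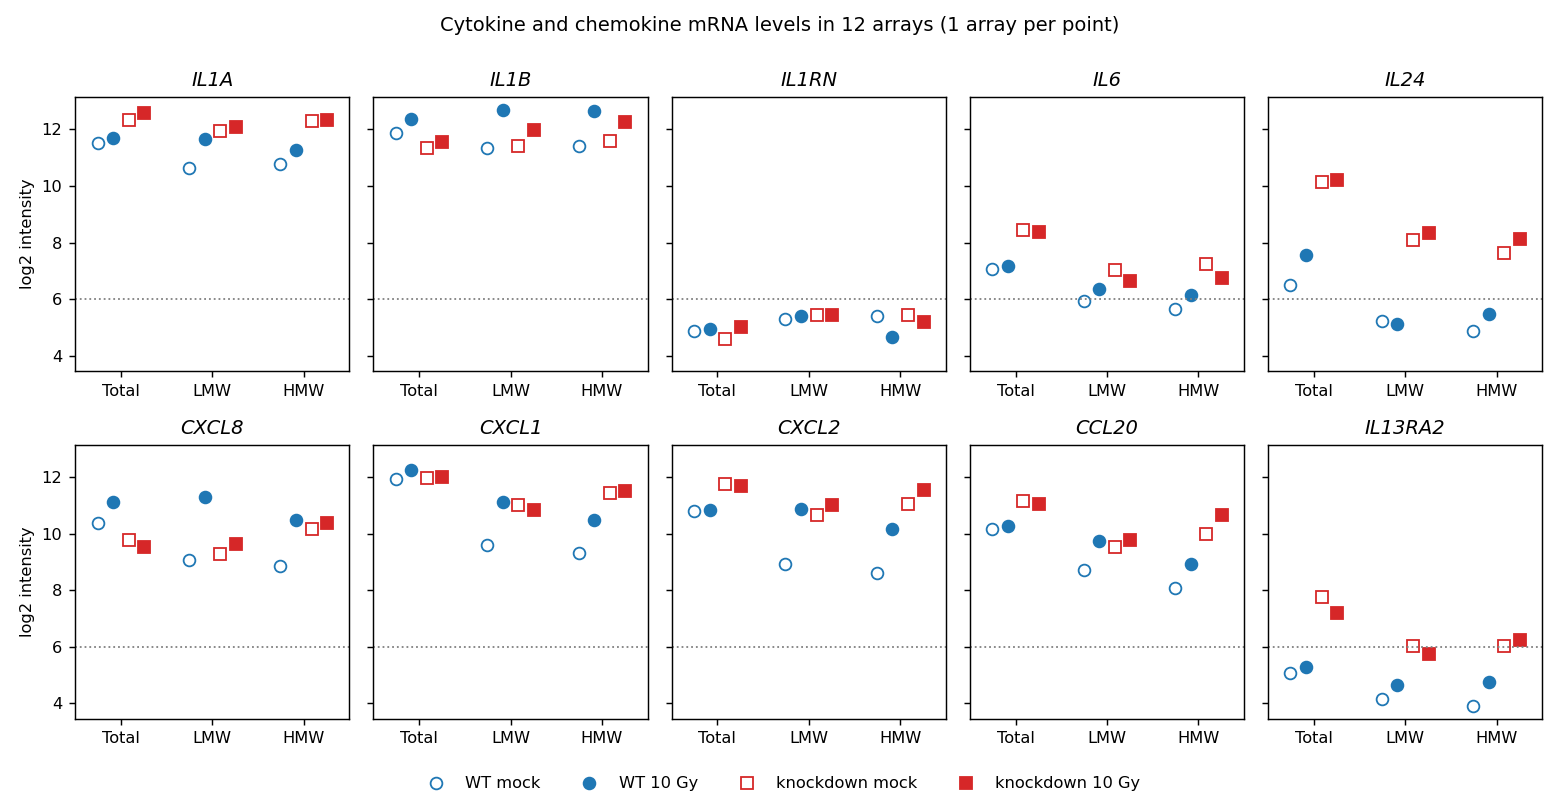
Level of each gene (log2 intensity) in each of the 12 arrays, by preparation and condition; each point is 1 array. IL24 spans 5.35 log2 units over the arrays and IL1B spans 1.37.

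In Total RNA the knockdown had higher IL24, IL13RA2, IL6, CXCL2, CCL20 and IL1A and lower CXCL8 and IL1B. IL24 and IL13RA2 reached log2 6 in enough arrays only because of the knockdown arrays. That filter favours genes that are higher in the knockdown, so both are set aside in the counts of knockdown calls. Of the other 7 tested genes, 4 were called higher and 2 lower, against 20.7% and 19.8% of all genes by limma. The median difference was 0.84 for these 7 genes and 0.03 for all genes tested. Both knockdown arrays lay above both WT arrays for 6 of the 9 genes and below them for 2, against 36.5% and 31.2% of all genes. The 6 include IL24 and IL13RA2, which passed the filter only through the knockdown arrays, beside IL1A, IL6, CXCL2 and CCL20. A fit over all 12 arrays called none of the other 7 genes in Total, higher or lower, so it made none of their 6 calls. It called only IL24 (adjusted p = 0.0131) and IL13RA2 (adjusted p = 0.0165) higher, the genes set aside above. The RNA came from whole cultures, in which fewer expressing cells and less RNA per cell cannot be told apart.

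IL24 encodes a cytokine of the IL-10 family that signals through the IL-20 receptors. Its intensity in Total was 92.0 in WT mock, 191.3 in WT 10 Gy, 1134.3 in knockdown mock and 1179.7 in knockdown 10 Gy cells. Both knockdown arrays lay far above both WT arrays. The log2 difference was 3.12 (SE 0.19, adjusted p = 5.59e-06), which was 12.3-fold in mock and 6.17-fold in irradiated cells. In LMW the log2 levels were 5.24, 5.12, 8.09 and 8.33 in the same order, a difference of 3.03 (SE 0.40, adjusted p = 1.77e-11), with 2.85 in the mock and 3.21 in the 10 Gy pair. In HMW they were 4.86, 5.48, 7.64 and 8.12, a difference of 2.71 (SE 0.41, adjusted p = 5.68e-09). The genotypes did not overlap in any preparation. In LMW that held for 4 of the 9 genes, in the direction of a higher knockdown, and for 30.4% of all genes. The 4 include IL24 and IL13RA2, which passed the filter only through the knockdown arrays, beside IL1A and IL6. IL24 was below log2 6, where array signals are compressed, in all 4 WT polysome arrays. Only the 2 Total arrays of WT cells reached that level, so IL24 passed the filter only through its knockdown arrays. Its tests therefore carry no weight beyond the levels themselves.

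IL13RA2 encodes a receptor that binds IL-13 with little signalling of its own. Its log2 level in Total was 5.06 and 5.27 in WT mock and 10 Gy cells and 7.77 and 7.20 in the knockdown. The difference was 2.32 (SE 0.19, adjusted p = 2.3e-05). It was also higher in LMW, by 1.48 (SE 0.43, adjusted p = 0.00726, with 1.87 in the mock and 1.09 in the 10 Gy pair), and in HMW, by 1.80 (SE 0.40, adjusted p = 0.000227). No WT array and 5 of 6 knockdown arrays reached log2 6, so these tests carry no weight beyond the levels themselves.

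The IL-1 ligands moved in opposite directions in Total. IL1A, an alarmin stored in epithelial cells, was at 11.52 and 11.70 in WT mock and 10 Gy cells and at 12.33 and 12.57 in the knockdown, a difference of 0.84 (SE 0.07, adjusted p = 2.06e-05). IL1B, which is made as a precursor and cut by caspase-1, was at 11.87 and 12.36 in WT and at 11.33 and 11.56 in the knockdown, a difference of -0.67 (SE 0.08, adjusted p = 0.000191). Neither gene overlapped between genotypes in Total. A second IL1B probe set differed by -0.66. In HMW, IL1A was at 10.79 and 11.29 in WT and at 12.28 and 12.32 in the knockdown (difference 1.26, SE 0.27, adjusted p = 0.000135). With the median of its probe sets that difference was 0.62 (adjusted p = 0.445), because its second probe set lay below log2 6 in all 12 arrays. IL1B in HMW overlapped between genotypes, with a difference of -0.09 (SE 0.25, adjusted p = 0.902).

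IL1RN, the antagonist of the IL-1 receptor, lay between 4.59 and 5.46 in all 12 arrays, and none of its 5 probe sets reached log2 6 in any array. It was therefore left out of the tests, except in the fits without a filter on low values.

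IL6 encodes a cytokine that signals through gp130 and STAT3. In Total it was at 7.07 and 7.19 in WT mock and 10 Gy cells and at 8.45 and 8.36 in the knockdown, without overlap (difference 1.27, SE 0.11, adjusted p = 3.4e-05). In HMW it was at 5.67, 6.16, 7.24 and 6.75, and the difference of 1.08 (SE 0.40) missed the threshold (adjusted p = 0.0691). In LMW the difference was 0.68 (SE 0.40, adjusted p = 0.264). The WT mock arrays of both polysome preparations, at 5.95 in LMW and 5.67 in HMW, were below log2 6.

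The chemokines differed among themselves in Total. CXCL8, CXCL1 and CXCL2 attract neutrophils through CXCR2, and CCL20 attracts cells that carry CCR6. CXCL2 was at 10.78 and 10.83 in WT and at 11.74 and 11.67 in the knockdown (difference 0.91, SE 0.08, adjusted p = 3.24e-05). CCL20 was at 10.15 and 10.27 in WT and at 11.16 and 11.06 in the knockdown (difference 0.90, SE 0.09, adjusted p = 7.1e-05). Both were higher in the knockdown without overlap. CXCL8 was at 10.37 and 11.12 in WT and at 9.76 and 9.52 in the knockdown (difference -1.10, SE 0.18, adjusted p = 0.00114), with -0.61 in the mock and -1.60 in the 10 Gy pair. CXCL1 was at 11.93, 12.24, 11.96 and 11.98, and its difference of -0.12 (SE 0.08, adjusted p = 0.288) did not pass. CXCL8 was thus the chemokine that was lower in knockdown Total RNA, and a second CXCL8 probe set differed by -1.34.

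On heavy polysomes CXCL2, CCL20, CXCL1 and IL1A were higher in the knockdown, as were IL24 and IL13RA2. With those last genes set aside, 4 of 7 were called higher and none lower, against 5.82% and 4.09% of all genes. The median difference was 1.26 for the 7 genes. In HMW, CXCL2 was at 8.59 and 10.17 in WT mock and 10 Gy cells and at 11.03 and 11.55 in the knockdown (difference 1.91, SE 0.36, adjusted p = 6.93e-06). CCL20 was at 8.08, 8.93, 9.97 and 10.67 (difference 1.81, SE 0.40, adjusted p = 0.000278), and CXCL1 at 9.32, 10.49, 11.44 and 11.51 (difference 1.57, SE 0.33, adjusted p = 0.000131). These 3 chemokines did not overlap between genotypes. Both knockdown arrays were above both WT arrays in HMW for 7 of the 9 genes and for 22.3% of all genes. The 7 include IL24 and IL13RA2, which passed the filter only through the knockdown arrays, beside IL1A, IL6, CXCL1, CXCL2 and CCL20. CXCL8 was at 8.85, 10.48, 10.17 and 10.37, where the WT 10 Gy array was the highest, and its difference of 0.60 (SE 0.38) had an adjusted p of 0.396. For the 10 Gy pair alone the knockdown differences in HMW were 2.63 for IL24, 1.74 for CCL20, 1.50 for IL13RA2, 1.38 for CXCL2, 1.03 for IL1A and 1.02 for CXCL1, all in the direction of the mock pair.

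On light polysomes IL1A was the only 1 of the 7 genes called higher in the knockdown, beside IL24 and IL13RA2, and none was lower, against 10.3% and 5.1% of all genes. IL1A differed by 0.88 (SE 0.31, adjusted p = 0.0351), with 1.34 in the mock pair, which uses the WT mock array, and 0.41 in the 10 Gy pair. This call was lost without the low-value filter (adjusted p = 0.0894), without the variance trend (0.137) and with the median of its probe sets (0.433). CXCL2 differed by 0.94 (SE 0.42, adjusted p = 0.108), with 1.75 in mock and 0.14 in irradiated cells. The basal epithelial markers moved with genotype too: in LMW 7 of 8 were called higher and none lower, in HMW 5 higher and 1 lower, and in Total 5 higher and 2 lower, against 10.3%, 5.82% and 20.7% of all genes higher. Their summed log2 level was 14.01 to 15.11 in WT and 14.72 to 15.48 in knockdown arrays. The summed luminal markers were at 12.14 to 13.02 in WT and 13.08 to 13.99 in knockdown arrays, without overlap, and the fibroblast markers at 8.10 to 10.31 and 9.09 to 10.44. The immune markers overlapped, at 7.77 to 8.35 and 7.45 to 8.40, as did the endothelial markers, at 6.19 to 6.85 and 6.33 to 6.78. The part of these markers in the differences above was not tested.

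Across the 6 matched comparisons of knockdown with WT (mock and 10 Gy in each preparation), 6 genes were above 0 every time, as were 12.7% of all genes. IL24 and IL13RA2, which passed the filter only through the knockdown arrays, are among the 6 genes. The 6 were IL24 (2.62 to 3.62), IL13RA2 (1.09 to 2.71), CXCL2 (0.14 to 2.45), CCL20 (0.03 to 1.88), IL6 (0.29 to 1.57) and IL1A (0.41 to 1.49). CXCL1 was above 0 in 4 of the 6 comparisons, and CXCL8 and IL1B in 2 each.

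**Figure D2:**
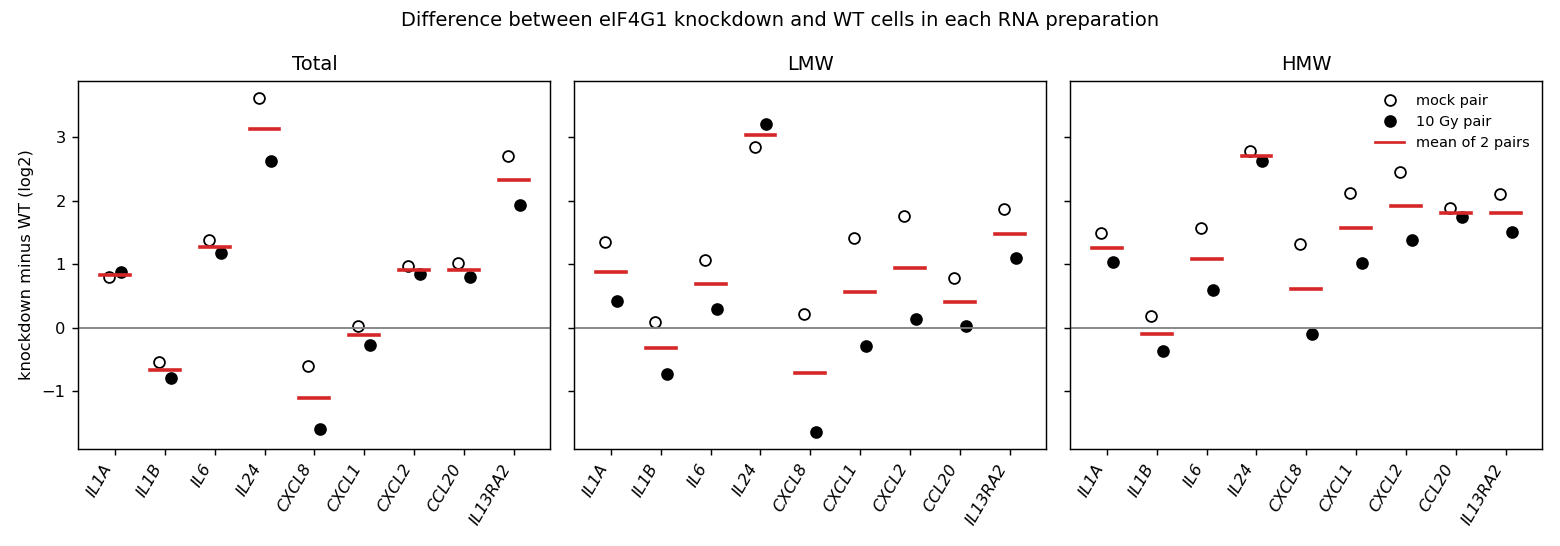
Knockdown minus WT (log2) for each of the 9 tested genes in Total, LMW and HMW; points are the mock and 10 Gy pairs. IL24 lies between 2.62 and 3.62 in all 6 comparisons, and CXCL8 is below 0 in both Total pairs.

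Heavy and light polysomes were then compared within each condition. Over the 4 conditions together, none of the 9 genes passed between HMW and LMW, against 19.6% of all genes higher in HMW and 21.1% lower. At an unadjusted p under 0.05 the count was also 0, against 50.8% of all genes. The chemokines ran in opposite directions in WT and knockdown cells. The difference between HMW and LMW was larger in the knockdown than in WT for 4 of the 9 genes, all of them chemokines, and smaller for none, against 5.33% and 10.5% of all genes.

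For CXCL8 the HMW minus LMW difference was -0.23 in WT mock, -0.80 in WT 10 Gy, 0.87 in knockdown mock and 0.73 in knockdown 10 Gy cells. The knockdown effect on it was 1.32 (SE 0.25, adjusted p = 0.000687). For CCL20 the values were -0.64, -0.82, 0.46 and 0.89, an effect of 1.41 (SE 0.27, adjusted p = 0.000686). Both messages were lower on heavy than on light polysomes in WT cells and higher in the knockdown. CXCL1 followed with -0.29, -0.63, 0.42 and 0.68 (effect 1.01, SE 0.23, adjusted p = 0.00332). CXCL2 had -0.32, -0.71, 0.38 and 0.53 (effect 0.97, SE 0.24, adjusted p = 0.00638). For the 10 Gy pair alone the effects were 1.71 for CCL20, 1.53 for CXCL8, 1.31 for CXCL1 and 1.24 for CXCL2, each larger than for the mock pair. That pair uses the WT 10 Gy array in LMW, which was no closer to the knockdown arrays (0.861 and 0.888) than WT mock (0.862 and 0.896).

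IL6 changed sign in the same way, with -0.28 and -0.19 in WT and 0.22 and 0.11 in the knockdown, but its effect of 0.40 (SE 0.32, adjusted p = 0.445) did not pass. Below LMW in both WT conditions and above it in both knockdown conditions was the pattern of 5 of the 9 genes and of 5.58% of all genes. IL24 did not show it, with -0.38, 0.36, -0.45 and -0.21. The fit over all 12 arrays called none of the 4 chemokines (adjusted p 0.101 for CCL20, 0.270 for CXCL8, 0.318 for CXCL1 and 0.334 for CXCL2). The second CXCL8 probe set was at 0.54 in WT mock cells, opposite in sign to the first, and at -0.36, 1.15 and 1.31 in the others. The probe sets of CXCL2 and CXCL8 are of the type that can bind related transcripts, and CXCL1, CXCL2 and CXCL3 are closely similar in sequence, so signal shared between them cannot be told apart here.

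**Figure D3:**
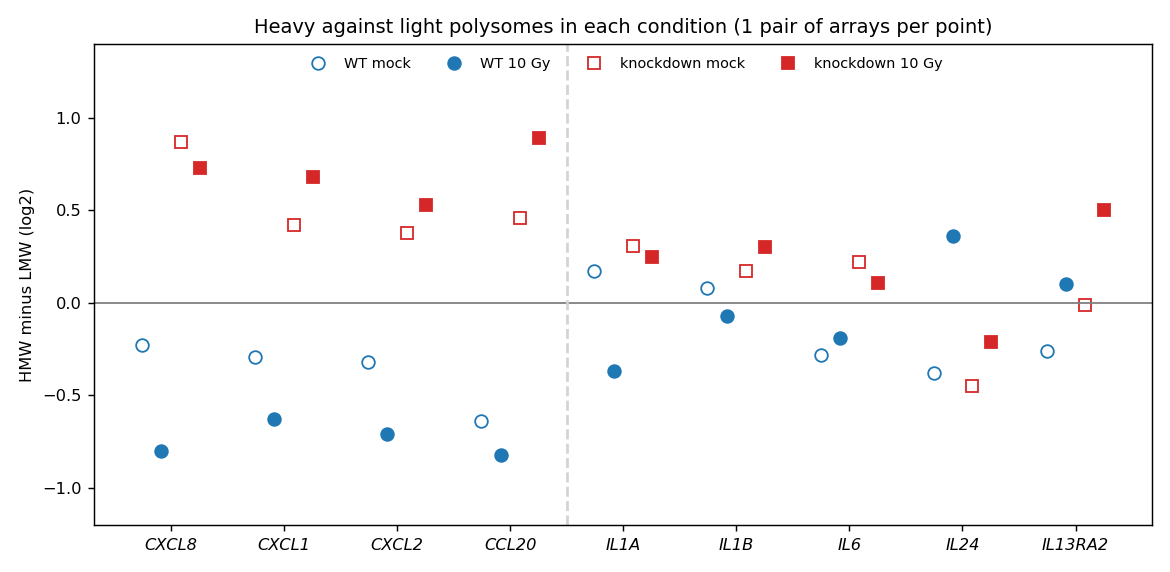
HMW minus LMW (log2) in each of the 4 conditions for the 9 tested genes; 0 means equal signal on heavy and light polysomes. The 4 chemokines lie between -0.82 and -0.23 in WT cells and between 0.38 and 0.89 in the knockdown.

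Relative to Total RNA, 6 of the 9 genes had lower signal on heavy polysomes and none had higher, against 18.6% and 17.4% of all genes. The median difference was -1.10 for the 9 genes and 0.03 for all genes. IL24 had the lowest value, at -2.09 (SE 0.20, adjusted p = 0.000801), followed by CXCL1 at -1.34 (SE 0.34, adjusted p = 0.0183) and IL6 at -1.31 (SE 0.18, adjusted p = 0.00205). CCL20 was at -1.25 (SE 0.26, adjusted p = 0.00896), IL13RA2 at -1.10 (SE 0.21, adjusted p = 0.00711) and CXCL2 at -0.92 (SE 0.30, adjusted p = 0.0446). Each of these 6 was lower in 4 of 4 conditions. In WT cells the log2 levels of IL13RA2 were below 6 on both sides, at 5.06 and 5.27 in Total and 3.90 and 4.74 in HMW. Those of IL24 in WT HMW (4.86 and 5.48) and of IL6 in WT mock HMW (5.67) were also below 6. The CXCL2 difference was -2.19 in WT mock and -0.12 in knockdown 10 Gy cells, and -0.50 (adjusted p = 0.0167) without WT mock. Without the WT 10 Gy condition, CCL20 (adjusted p = 0.0596), CXCL1 (0.102) and CXCL2 (0.118) were no longer called. CXCL2 was also lost without knockdown mock (0.084) and without the variance trend (0.0584).

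IL1A (-0.36, adjusted p = 0.066), CXCL8 (-0.23, adjusted p = 0.631) and IL1B (0.20, adjusted p = 0.394) did not pass. IL1B was called higher, by 0.42 (adjusted p = 0.0170), without the WT mock condition. Light polysomes were compared with the same Total arrays, so this result shares them. There, 6 of the 9 genes were lower and none higher, against 28.1% and 28.5% of all genes, from -1.92 for IL24 (SE 0.25, adjusted p = 0.0013) to -0.89 for CXCL2 (SE 0.30, adjusted p = 0.0323). IL24 and IL13RA2 in both WT conditions, IL6 in WT mock cells and IL13RA2 in knockdown 10 Gy cells were below log2 6 in LMW. The call of CXCL2 was lost without WT mock (-0.56, adjusted p = 0.127) and without knockdown mock (adjusted p = 0.0615). An array intensity is relative to the other messages in its preparation, so these differences are no measure of how much of a message was on polysomes.

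The knockdown changed the HMW minus Total difference of 2 genes upward and of none downward, against 3.97% and 0.492% of all genes. CXCL8 went from -1.52 and -0.64 in WT mock and 10 Gy cells to 0.40 and 0.85 in the knockdown (effect 1.70, SE 0.41, adjusted p = 0.00189). Its knockdown difference was -1.10 in Total, where it was called lower, and 0.60 in HMW, where it was not called (adjusted p = 0.396). CXCL1 went from -2.60 and -1.76 to -0.52 and -0.47 (effect 1.69, SE 0.32, adjusted p = 1.41e-05). For the 10 Gy pair alone the effects were 1.48 for CXCL8 and 1.29 for CXCL1. These are the chemokines that were not called higher in knockdown Total RNA. CXCL2 (1.01, adjusted p = 0.0931) and CCL20 (0.91, adjusted p = 0.251) missed the threshold. The fit over all 12 arrays called neither CXCL8 (adjusted p = 0.239) nor CXCL1 (0.190).

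Irradiation with 10 Gy was first tested with genotype in the model. In Total, none of the 9 genes passed in either direction, against 0.128% of all genes higher and 0.0492% lower. At an unadjusted p under 0.05 there were 3 of the 9, against 12.8% of all genes. In LMW none passed, against 0.345% and 0.0295%, and 3 of the 9 had an unadjusted p under 0.05, against 7.86% of all genes. In HMW, 1 of the 9 genes was higher and none lower, against 0.463% and 0.00985%. That gene was IL1B, at 11.41 in WT mock, 12.64 in WT 10 Gy, 11.60 in knockdown mock and 12.27 in knockdown 10 Gy cells. The difference was 0.95 (SE 0.25, adjusted p = 0.0345), with 1.22 in WT and 0.67 in the knockdown. It was lost with the filter at log2 7 (adjusted p = 0.0536), the median of probe sets (0.0902), quantile normalization (0.0582), no variance trend (0.363) and all 12 arrays (0.492).

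Within a genotype there was 1 array against 1, so the following differences have no test and are counted at 2-fold. In WT Total RNA, IL24 alone of the 9 genes was at least 2-fold higher after 10 Gy, at 2.08-fold, as were 0.0788% of all genes. In knockdown Total RNA none was, against 0.0197%. In WT LMW 6 of the 9 genes were at least 2-fold higher, against 15.9% of all genes. The log2 values there were 2.20 for CXCL8, 1.96 for CXCL2, 1.51 for CXCL1, 1.36 for IL1B, 1.04 for IL1A and 1.03 for CCL20. In knockdown LMW none of the 9 was, against 0.226%.

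In WT HMW 4 of the 9 genes were at least 2-fold higher after 10 Gy, against 15.8% of all genes. The values were 1.63 for CXCL8, 1.58 for CXCL2, 1.22 for IL1B and 1.16 for CXCL1. In knockdown HMW none was, against 0.335%. Since the WT polysome arrays differed at so many genes, the WT counts have to be read against those shares. The second CXCL8 probe set differed by 2.53 in WT LMW and 1.64 in WT HMW, and by -0.08 and 0.08 in the knockdown.

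The response to 10 Gy was at least 2-fold larger in WT than in the knockdown for 1 gene in Total (IL24, a log2 difference of 1.00), against 0.797% of all genes. In LMW it was so for 3 genes, CXCL8 (1.86), CXCL1 (1.70) and CXCL2 (1.60), against 17.3% of all genes. In HMW it was so for 3 genes, CXCL8 (1.43), CXCL1 (1.09) and CXCL2 (1.07), against 15.2%. These differences between genotypes were not tested.

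**Figure D4:**
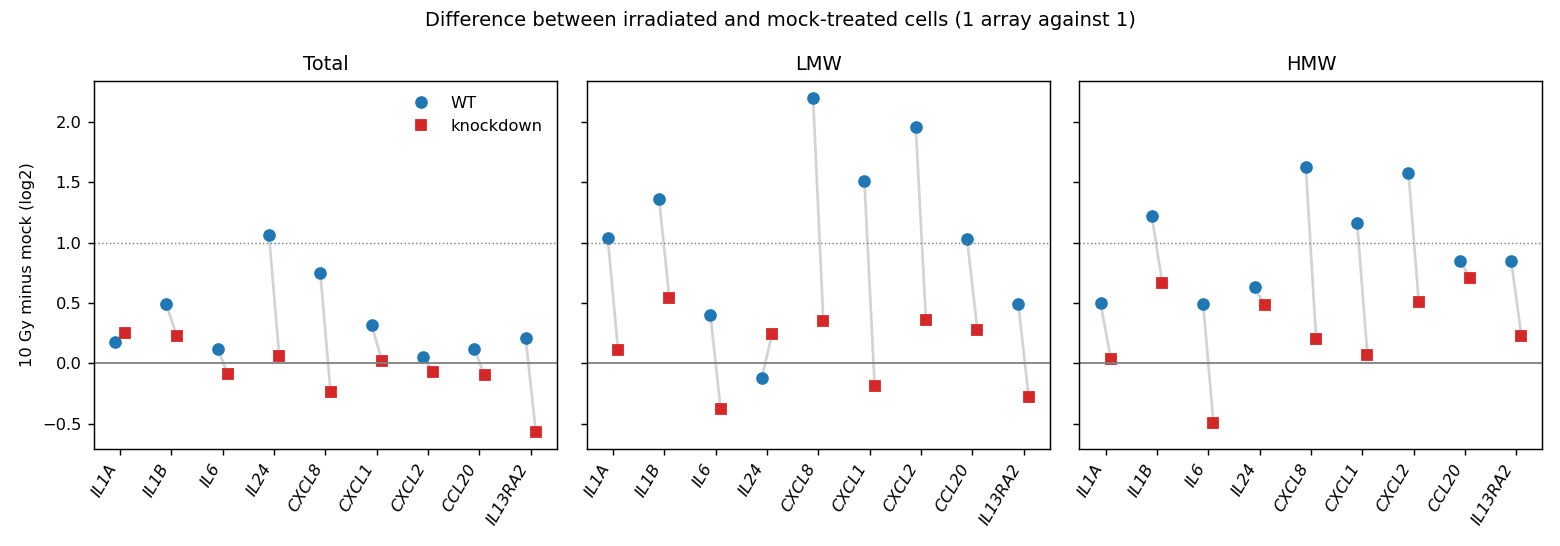
10 Gy minus mock (log2) for the 9 tested genes in WT and knockdown cells, by preparation; each value is 1 array minus 1 array. In LMW the WT values reach 2.20 for CXCL8, and no knockdown value reaches 1.

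Other genes of these pathways were counted by lists. Of 32 other cytokine and chemokine ligands, 31 were on the array and 9 were tested, so most were too low to measure. In Total, 4 of the 9 were higher in the knockdown and none lower (median 0.33), against 20.7% and 19.8% of all genes. They included CXCL3, a neutrophil chemokine close to CXCL2 (0.96, adjusted p = 0.00204), the STAT3-activating cytokine LIF (0.65, adjusted p = 0.00487), and CSF3, the granulocyte growth factor (0.58, adjusted p = 0.00131). In HMW 3 of the 9 were higher, against 5.82% of all genes, CXCL3 by 2.07 (adjusted p = 2.57e-05), LIF by 1.29 (adjusted p = 0.0206) and CSF3 by 1.24 (adjusted p = 0.0364). The HMW minus LMW difference was larger in the knockdown for CXCL3 (1.15, adjusted p = 0.0194) and for IL18 (1.39, adjusted p = 0.00057). In WT mock, WT 10 Gy, knockdown mock and knockdown 10 Gy cells, CXCL3 was at 5.76, 8.32, 8.40 and 7.51 in LMW. In HMW it was at 4.88, 6.65, 7.79 and 7.88. CXCL3 was thus higher in HMW than in LMW only in knockdown 10 Gy cells, and both WT mock values were below log2 6.

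Of 23 receptors, 13 were tested, and in Total 4 were higher and 5 lower (median -0.05), against 20.7% and 19.8% of all genes. The decoy IL-1 receptor IL1R2 was higher by 1.18 (adjusted p = 0.000249) and the double-stranded RNA sensor TLR3 by 1.03 (adjusted p = 0.000215). In WT cells only the Total arrays reached log2 6, at 6.18 and 6.10 for IL1R2 and 6.06 and 6.41 for TLR3. Both genes therefore passed the filter only through the knockdown arrays, and their tests carry no weight beyond the levels. IL13RA1, the signalling chain for IL-13, fell by 1.08 (adjusted p = 4.88e-05), and IL20RB, a chain of the receptors for IL-24, was at 8.86 and 8.61 in WT and at 7.94 and 7.54 in knockdown Total RNA (adjusted p = 9.44e-05). In HMW 4 receptors were higher and none lower, against 5.82% and 4.09% of all genes. IL1R2 and TLR3 are counted among the higher receptors in both Total and HMW.

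Among all genes, 20.7% were higher and 19.8% lower in Total, and 5.82% and 4.09% in HMW. Of 23 tested NF-kappaB signalling genes, 2 were higher and 1 lower in Total (median 0.13), and 2 were higher and none lower in HMW. The lower gene was NFKBIZ, a nuclear cofactor of NF-kappaB, at -0.35 in Total (adjusted p = 0.0197), but it was higher by 1.92 in HMW (adjusted p = 0.000218), with 6.29 and 8.14 in WT mock and 10 Gy cells and 8.85 and 9.43 in the knockdown. The 2 higher in Total were the deubiquitinase CYLD (0.70, adjusted p = 0.000813) and the subunit REL (0.33, adjusted p = 0.0319). Among 9 other NF-kappaB targets, 2 were higher and 3 lower in Total (median -0.26), and 3 were higher and 1 lower in HMW. MMP9, a matrix protease, was higher by 1.96 in Total (adjusted p = 1.14e-05). S100A8, a subunit of calprotectin, fell by 0.64 in Total (adjusted p = 0.000166) and higher by 2.36 in HMW (adjusted p = 4.63e-13).

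The remaining lists are read against the same shares of all genes, 20.7% higher and 19.8% lower in Total and 5.82% and 4.09% in HMW. Of 12 AU-rich binding and decay factors, 1 was higher and 5 lower in Total (median -0.11), and none was higher and 1 lower in HMW. ELAVL1, which stabilises AU-rich messages, was at -0.49 in Total (adjusted p = 0.00132) and -0.98 in HMW (adjusted p = 0.00247). TIA1, which represses their translation, was at -0.66 in Total (adjusted p = 0.00152). Of 9 JAK-STAT genes, 1 was higher and 2 lower in Total (median -0.01), and 1 higher and none lower in HMW. Of 9 IL-1 processing genes, 3 were higher and 2 lower in Total (median 0.04), and none higher and 1 lower in HMW. The inflammasome sensor NLRP3, counted among the lower genes, was at -1.35 in Total (adjusted p = 0.000322) and -1.65 in HMW (adjusted p = 0.00119). Its knockdown levels were below log2 6, at 5.04 and 4.94 in Total and 5.19 and 5.39 in HMW. It reached log2 6 in every WT array but in the knockdown only in LMW mock cells (6.04). NLRP3 thus passed the filter only through its WT arrays, and its tests carry no weight beyond the levels.

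The genes whose levels ran most like each member over the 12 arrays were found by Pearson's r, as a description, since all arrays share the same 4 conditions. IL13RA2 was most like IL24, at 0.964, and IL24 was most like DHRS7 (0.971) and RNASE7 (0.968). CXCL1 was most like C5orf15 (0.979), CXCL2 like CHMP1B (0.974), CCL20 like ATP5IF1 (0.976), IL1A like BMP2 (0.975) and IL6 like PACC1 (0.975). CXCL8 and IL1B had lower best values, 0.899 with SMAD9 and 0.901 with CORO2A. Between members, r was 0.94 for CXCL2 with CCL20, 0.85 for CXCL8 with IL1B and -0.10 for CXCL8 with IL24.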

How the data were processed

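MCF10A RNA from 12 samples was measured on Affymetrix 3′-IVT arrays. The authors deposited linear intensities per probe set, made with RMA per the submitters' processing notes. Neither the RMA version nor the set of arrays normalised jointly is given in the sources used here. These intensities were converted to log2. The array held 54675 probe sets, of which 41097 named a single gene and were used. A further 1801 named several genes and 11777 had no listed gene. All sample columns were matched to labels. The number of arrays limits the precision.

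Genes at log2 6 or more in at least 4 arrays (10157 genes) were fitted with limma 3.58.1 in R 4.3.3 (eBayes with a variance trend, Benjamini-Hochberg over all tested genes, threshold 0.05). Preparations were compared over 8 arrays with condition as a block. Knockdown and 10 Gy were fitted additively over 4 arrays or 4 differences, leaving 1 residual degree of freedom. In LMW, HMW and HMW minus Total the prior degrees of freedom were infinite, so a gene's own spread did not enter its SE. For differences between preparations, the trend followed the mean level of both. The fits were tested on simulated data.

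The members and the lists (other ligands, receptors, NF-kappaB signalling and targets, AU-rich binding and decay, JAK-STAT, IL-1 processing and cell type markers) were chosen with earlier results of these data known. All members were named. From each other list, names come from the 2 highest and 2 lowest knockdown differences in Total among genes that passed. The 3 most similar genes were found for each tested member, and not all are printed. Alternatives were other filters, probe set rules, quantile normalization, no variance trend, all 12 arrays in 1 fit and each condition left out. Promoters were matched by symbol to RefSeq GRCh38.p14. The 4 motifs searched are all reported.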

Additional observations from a re-analysis of the deposited data

Results flagged for a closer look

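IL6 moved in opposite directions after 10 Gy in the 2 genotypes. In WT cells it was higher in all 3 preparations, by 0.12 in Total, 0.40 in LMW and 0.49 in HMW on the log2 scale. In the knockdown it was lower in all 3, at -0.09, -0.38 and -0.49. The mean response differed by 0.66 between WT and knockdown. The difference was not tested, preparations of a condition are not replicates, and 343 of 10157 genes (3.38%) had every preparation opposite between genotypes.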

How the results depend on the processing

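Of the counts of called genes under other settings, 202 stayed within 1.5 times the main count and 21 did not, and no called result reversed. Counts of 0 that stayed at 0 are among the 202. For single genes under these settings, 28 results lost a call and 7 gained one. With all 12 arrays in 1 fit (consensus correlation 0.2584), the knockdown in Total gave 2 higher and 0 lower. The 2 were IL24 and IL13RA2, which passed the filter only through the knockdown arrays. In that fit the knockdown effect on HMW minus Total and on HMW minus LMW gave 0 higher, and 10 Gy in HMW gave 0 higher. Without probe sets ending in _x_at or _s_at only 6 of the 9 genes were measured, and the knockdown in Total gave 1 lower. The knockdown effect then gave 1 higher on HMW minus Total and 2 higher on HMW minus LMW. The counts at 2-fold after 10 Gy in WT then became 3 in LMW and 2 in HMW, and those of a larger WT response 1 in LMW and 1 in HMW. Quantile normalization gave 1 gene higher after 10 Gy in Total (IL1B, 0.39, adjusted p = 0.0267), 0 in HMW, and 1 with a larger WT response in HMW. In HMW after 10 Gy, 0 were higher with the filter at log2 7, the median of probe sets and no variance trend. Without a filter, LMW minus Total gave 1 higher, IL1RN, which lay below log2 6 throughout. Leaving out each condition in turn gave 0 to 1 higher and 3 to 6 lower in HMW minus Total, and 5 to 7 lower in LMW minus Total. For knockdown and 10 Gy, leaving out a pair leaves no test, so pair values are given. The causes of these changes were not tested. Levels below log2 6 limit IL24, IL13RA2 and IL1RN, and IL6 in the WT mock polysome arrays.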
